A study of Homo sapiens with 9 samples.

Results

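Interferon-stimulated effector genes are the genes whose proteins carry out the antiviral and immune actions of interferons. They were chosen as 45 listed symbols by function, with no cut on a measured value, though earlier results of these data were known. Of these, 41 had 1 row of their own in both deposited tables, which hold 36119 loci (knockout table) and 35856 loci (treatment table). The other 4 were MX2, OAS2, OAS3 and TAP1, whose rows were merged with a neighbour or listed several times.

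Type I interferons bind a receptor on the cell surface, and the kinases TYK2 and JAK1 then phosphorylate STAT2. With IRF9, STAT2 enters the nucleus in a complex that binds interferon-stimulated response elements in the promoters of target genes. The targets include sensors of foreign RNA (OAS proteins, RIG-I, MDA5), proteins that bind viral RNA (IFITs), restriction factors in membranes (IFITMs, tetherin) and GTPases that act on viruses and intracellular pathogens (MX and GBP proteins). RIG-I takes its name from its induction by retinoic acid, first seen in promyelocytic leukaemia cells.

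The study measured RNA in NB4, a human acute promyelocytic leukaemia line with the PML-RARA fusion gene that matures towards granulocytes when given all-trans retinoic acid. In 1 experiment, cells were cultured for 24 h with the vehicle DMSO, with MC_2580 (an inhibitor of the histone demethylase LSD1), with retinoic acid (RA) at 0.01 uM, with RA at 1 uM, or with MC_2580 plus RA at 0.01 uM, called the combination here. Each of these 5 groups was 1 library. In the other experiment, 2 libraries of untreated LSD1 knockout (KO) cells were set beside 2 libraries of untreated wild-type (WT) cells. The dose of MC_2580 and the number of knockout clones were not given in the sources used here, and the knockout table gives both KO libraries the same line name. The labels name no separate cultures behind libraries of 1 group, and p-values therefore reflect the spread between libraries, which may be technical.

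Values are FPKM, read fragments scaled to transcript length and library size, so levels of different genes can be compared per length within a table. The labels do not say how the libraries of both tables were scaled, and levels are not compared across the tables unless said so. Differences are log2 ratios of FPKM + 1. Read totals are unknown. The spacing of low values put the libraries at 1.04 (KO 1), 1.35 (KO 2) and 1.66 (WT 2) times the depth of WT 1, and the treated libraries at 0.73 to 0.9 times that of DMSO. Between 11973 and 13365 loci reached 1 FPKM in a library, and the 10 highest loci took 50.5% to 65.7% of all FPKM.

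The targeted gene KDM1A, which encodes LSD1 (listed under AOF2, chromosome 1, 23218533 to 23282771 in build hg18), was at 14.0 and 16.8 FPKM in the KO libraries and at 49.8 and 66.6 in WT. Both KO values lay below both WT values. The authors' own test of replicate 2 at this locus is marked as failed, so the locus was left out of the fit here. In the treatment table KDM1A was at 69.9 FPKM with DMSO and 66.9 with MC_2580. It was at 52.0 with RA 0.01 uM, 51.0 with RA 1 uM and 50.8 with the combination.

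The promyelocyte markers fitted the labelled line: 5 of 6 (MPO, PRTN3, CTSG, AZU1 and CD33) were above 1 FPKM in every library, and ELANE was below 1 in every library. Markers of other cells differed in kind. Plasmacytoid dendritic cell markers summed to at most 14.5 FPKM, mostly IL3RA, and CLEC4C, LILRA4 and GZMB stayed below 1. Of the 9 lymphoid markers 3 were below 1 FPKM in every library, among them MS4A1 at 0, but CD3D was at 56.1 to 213 FPKM and NKG7 at 21.9 to 91.0 over the 9 libraries.

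To show what the promoters of these genes look like, windows from 250 bases before to 50 after each annotated gene start were taken from RefSeq (build GRCh38.p14) and searched on both strands for the core of the interferon-stimulated response element, written as GAAA, any 2 bases and GAAA (TTTC, any 2 bases and TTTC on the other strand). Of 41 members, 36 had at least 1 window, and 24 of these 36 genes (66.7%) held the motif, against 1195 of 27305 genes in the whole table (4.38%) and 659 of 15843 protein-coding genes (4.16%). IFIT2, IFITM2, OASL, TRIM22 and GBP2 were not matched. The windows below belong to the 5 members with the largest differences from DMSO that hold the motif, in capitals: IFI6 (chr1:27672143-27672442, minus strand), PARP14 (chr3:122680589-122680888, plus strand), GBP1 (chr1:89065159-89065458, minus strand), EPSTI1 (chr13:42992192-42992491, minus strand) and IFIT3 (chr10:89327747-89328046, plus strand). Each is written 5′ to 3′ along its gene.
IFI6: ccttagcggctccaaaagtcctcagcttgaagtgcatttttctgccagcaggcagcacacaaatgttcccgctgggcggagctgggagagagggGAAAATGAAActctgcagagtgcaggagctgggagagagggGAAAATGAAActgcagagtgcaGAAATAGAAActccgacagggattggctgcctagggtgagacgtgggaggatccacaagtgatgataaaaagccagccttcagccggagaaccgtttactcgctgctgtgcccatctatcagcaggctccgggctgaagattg
PARP14: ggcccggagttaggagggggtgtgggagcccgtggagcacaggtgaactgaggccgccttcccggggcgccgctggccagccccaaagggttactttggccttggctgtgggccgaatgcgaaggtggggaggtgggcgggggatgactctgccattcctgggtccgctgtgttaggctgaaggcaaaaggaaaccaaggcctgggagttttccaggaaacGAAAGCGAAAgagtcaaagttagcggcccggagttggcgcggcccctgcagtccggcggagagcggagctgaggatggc
GBP1: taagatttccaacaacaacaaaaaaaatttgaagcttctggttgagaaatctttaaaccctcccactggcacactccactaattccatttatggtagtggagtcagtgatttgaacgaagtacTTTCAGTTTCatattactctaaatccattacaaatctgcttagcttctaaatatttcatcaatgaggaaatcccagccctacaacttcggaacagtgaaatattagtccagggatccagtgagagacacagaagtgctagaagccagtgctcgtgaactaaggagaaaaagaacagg
EPSTI1: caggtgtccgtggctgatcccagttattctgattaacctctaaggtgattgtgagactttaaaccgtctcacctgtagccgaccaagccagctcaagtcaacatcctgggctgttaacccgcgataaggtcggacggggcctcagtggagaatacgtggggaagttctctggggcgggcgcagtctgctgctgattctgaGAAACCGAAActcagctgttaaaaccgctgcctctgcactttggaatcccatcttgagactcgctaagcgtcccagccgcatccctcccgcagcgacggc
IFIT3: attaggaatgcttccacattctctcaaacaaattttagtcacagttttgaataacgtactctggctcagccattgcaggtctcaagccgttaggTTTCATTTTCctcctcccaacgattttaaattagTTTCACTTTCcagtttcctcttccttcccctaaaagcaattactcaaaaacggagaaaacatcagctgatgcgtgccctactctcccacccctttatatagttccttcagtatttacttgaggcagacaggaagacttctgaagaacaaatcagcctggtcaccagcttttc

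The IFI6 window held 3 matches, GAAAATGAAA at positions -156 and -115 and GAAATAGAAA at -93, counted from the gene start to the first base of the match. IFIT3 held 2, TTTCATTTTC at -156 and TTTCACTTTC at -122. PARP14 had GAAAGCGAAA at -29, EPSTI1 had GAAACCGAAA at -50 and GBP1 had TTTCAGTTTC at -127. The windows of OAS1 and IFI30, the members with the largest differences, held no match to these letters. A match is a stretch of letters and not a measured binding site.

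The combination gave the highest level of nearly every member. Of the 37 members with a value in all 5 treatment libraries, 35 were highest with the combination, where 28.4% of protein-coding genes were. The exceptions were IFITM2 and IFI27, both highest with RA 1 uM. In 33 of the 37 the level climbed in the order DMSO, RA 0.01 uM, RA 1 uM, combination, an order kept by 11.8% of protein-coding genes. IFIT1, IFITM2, IFITM3 and IFI27 did not keep it.

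**Figure D1:**
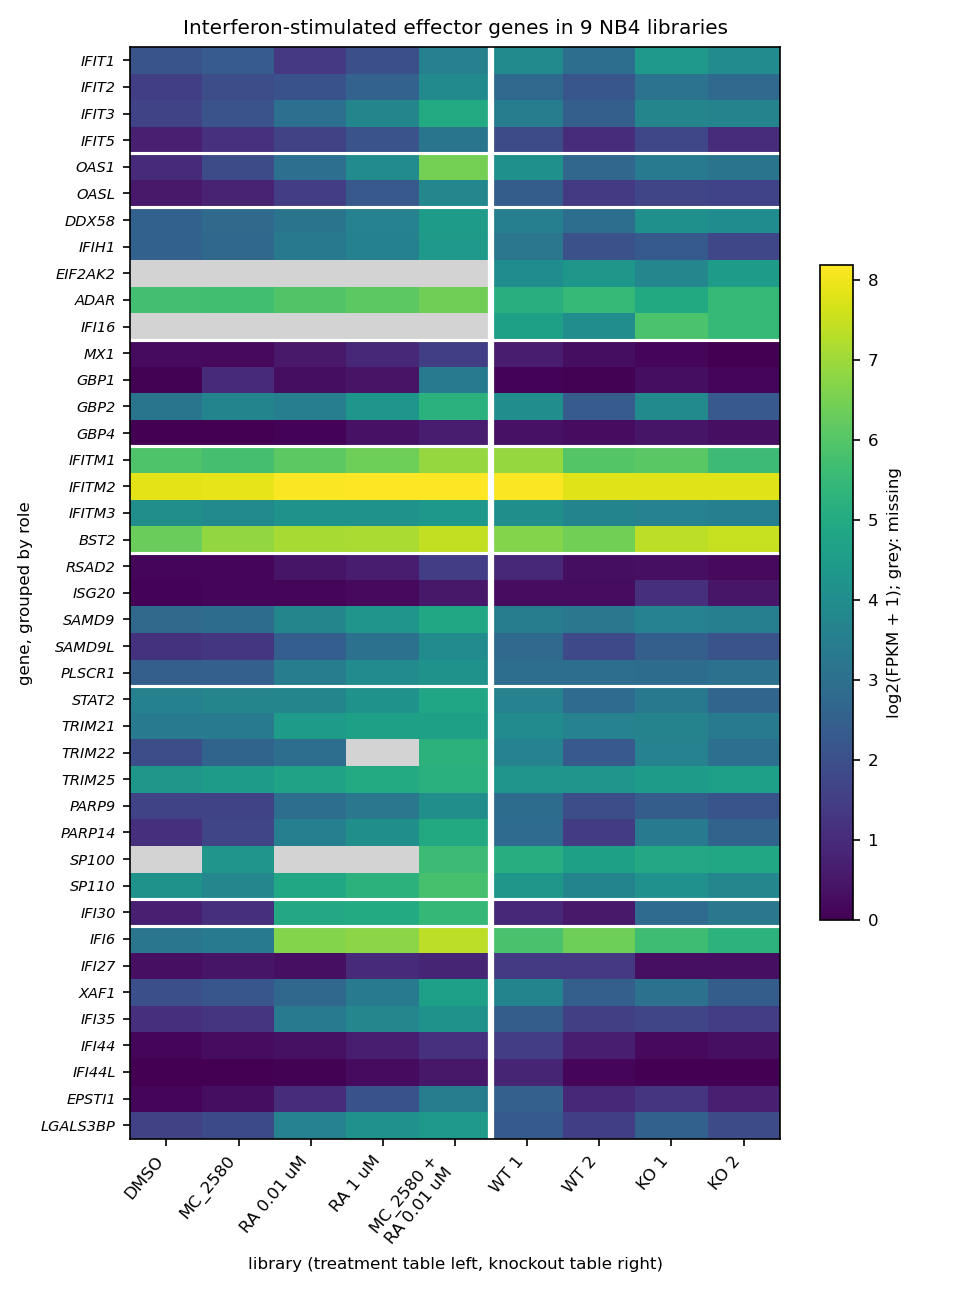
Level of the 41 members in the 9 NB4 libraries as log2(FPKM + 1), with genes in rows grouped by role, treatment libraries on the left and knockout table libraries on the right; grey cells are missing values. Among the 5 treatment columns, the colour is brightest in the combination column for 35 of the 37 members with all 5 treatment values.

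With 1 library per treatment no test was possible, and a member is called higher or lower where the difference was at least 2-fold. Shares and medians of all loci are over loci that reached 1 FPKM in either library, while members are counted over all with a value; below 1 FPKM in both libraries no gene can be 2-fold apart on this scale. RA at 0.01 uM had 11 members higher of 38 measured (5.42% of all loci tested were higher) and none lower (3.99%). RA at 1 uM had 21 higher of 37 (6.63%) and none lower (4.09%). The combination had 29 higher of 38 (9.05%) and none lower (4.64%). MC_2580 alone had none higher of 38 (2.22%) and none lower (1.73%). The median log2 difference over the measured members was 0.14 with MC_2580, 0.70 with RA 0.01 uM, 1.07 with RA 1 uM and 1.92 with the combination. Over all loci tested these medians were -0.02, -0.06, -0.04 and -0.02. The 4 comparisons share the DMSO library, so any deviation of that library enters all of them.

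Libraries of 1 group also differed in these genes. WT 1 was 2-fold above WT 2 in 10 of 34 members tested (4.99% of all loci) and below it in none (4.05%), with a median of 0.78. KO 1 was 2-fold above KO 2 in 1 member, GBP2 (5.36%), and below it in none (3.21%), with a median of 0.30. The widest such gap was 1.62, at GBP2 between the KO libraries. No like pair exists for the treatments, so this spread is the only gauge of library-to-library variation, and it comes from the other table.

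**Figure D2:**
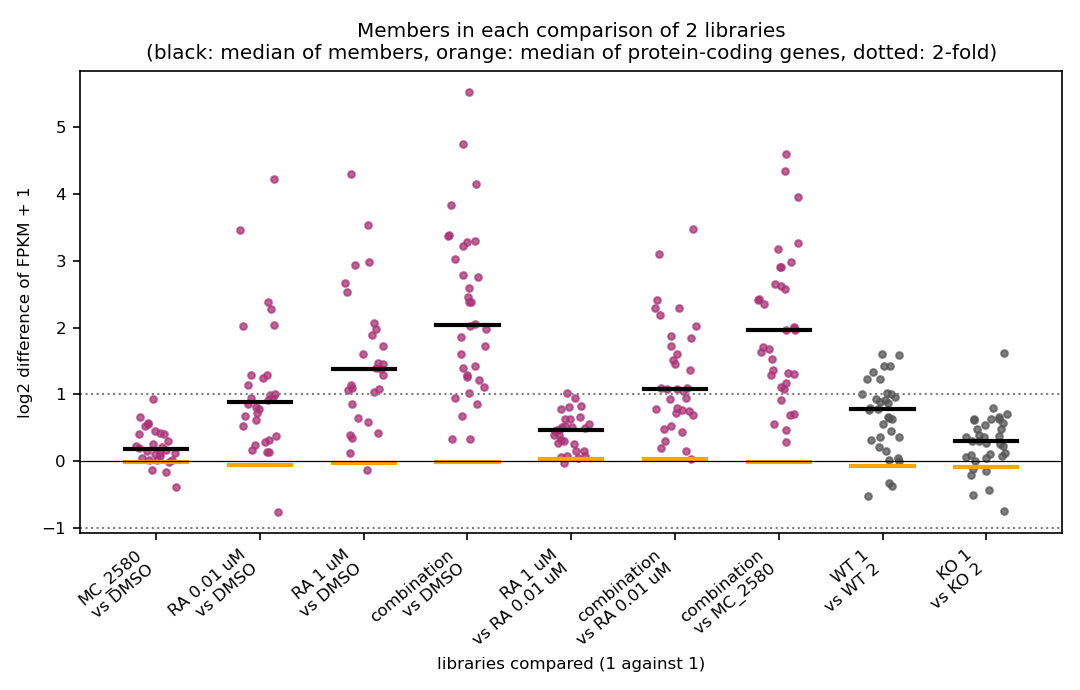
Each point is 1 member (if either library reached 1 FPKM), placed by its log2 difference of FPKM + 1 between 2 libraries (y axis) in 7 treatment comparisons and, in grey, 2 comparisons of libraries of 1 group (x axis). Black lines mark the median of members and orange lines that of protein-coding genes; the member median was 2.04 for combination against DMSO among members of at least 1 FPKM and 0.78 for WT 1 against WT 2.

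The OAS family, which senses double-stranded RNA and makes the 2-5A messenger that activates RNase L, held the member with the widest range. OAS1 (chromosome 12, 111829122 to 111854177, hg18) was at 0.944 FPKM with DMSO, 2.69 with MC_2580, 7.01 with RA 0.01 uM, 14.4 with RA 1 uM and 88.6 with the combination. The combination was 46.1-fold above DMSO on the FPKM + 1 scale (log2 5.53), and 2.54 above RA 1 uM in log2. In WT cells of the knockout experiment OAS1 was at 16.4 and 5.48 FPKM, so the untreated libraries of that table lay above the DMSO library. The scaling of the tables against each other is unknown. OASL, a relative without 2-5A activity (chromosome 12, 119942504 to 119961342), was at 0.475, 0.732, 1.79, 3.89 and 12.7 FPKM in the same order of treatments. Its combination difference from DMSO was 3.22 in log2.

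IFIT proteins bind viral RNA through tetratricopeptide repeats. IFIT3 was at 2.23 FPKM with DMSO, 3.26 with MC_2580, 6.85 with RA 0.01 uM, 12.5 with RA 1 uM and 30.8 with the combination (log2 3.30). IFIT2 went from 1.87 FPKM with DMSO through 2.86, 3.16 and 4.89 to 14.0 with the combination. IFIT5 (chromosome 10, 91164419 to 91170733) went from 0.638 through 1.23, 1.97 and 3.27 to 7.98. IFIT1 departed from its relatives. It was at 3.38 FPKM with DMSO and 4.22 with MC_2580, but at 1.59 with RA 0.01 uM and 2.98 with RA 1 uM, before 10.8 with the combination. Its log2 differences from DMSO were -0.76, -0.14 and 1.43 for RA 0.01 uM, RA 1 uM and the combination, and RA 0.01 uM was thus short of the 2-fold mark. The tables list IFIT1, IFIT2 and IFIT3 over 1 shared span (chromosome 10, 90963306 to 91164294), so reads between these neighbours may have been split by the authors' counting.

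Among RNA and DNA sensors, DDX58 (RIG-I), which detects viral RNA ends, was at 4.77, 6.10, 7.80, 11.3 and 21.6 FPKM with DMSO, MC_2580, RA 0.01 uM, RA 1 uM and the combination. IFIH1 (MDA5), which detects long double-stranded RNA, was at 4.79, 5.77, 8.90, 11.2 and 20.0. Both were higher with RA 1 uM and with the combination, and neither with RA 0.01 uM. ADAR, which edits adenosine in double-stranded RNA, ranged only from 51.7 FPKM with MC_2580 to 83.9 with the combination and passed 2-fold nowhere. IFI16 and EIF2AK2 (the kinase PKR) had failed estimates in all 5 treatment libraries and have no value there.

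Of the GTPases, GBP1, MX1 and GBP4 were under 1 FPKM with DMSO. GBP1 (chromosome 1, 89290593 to 89303479), a guanylate-binding protein that coats intracellular pathogens, was at 0.0227 FPKM with DMSO, 0.998 with MC_2580, 0.246 with RA 0.01 uM, 0.343 with RA 1 uM and 9.68 with the combination. It was below 1 FPKM in 4 of 5 libraries, and MC_2580 alone lay above both RA doses. Its neighbour GBP2 went from 7.97 FPKM with DMSO through 11.9, 10.2 and 18.9 to 36.2 with the combination. MX1, a dynamin-like antiviral GTPase, reached 1 FPKM only with the combination (1.85, against 0.189 with DMSO). GBP4 stayed at or below 0.527 FPKM.

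IFITM2, BST2 and IFITM1 were among the highest members, and the membrane restriction factors had the smallest median combination difference of any role (0.64). IFITM2 was at 227, 234, 279, 289 and 285 FPKM with DMSO, MC_2580, RA 0.01 uM, RA 1 uM and the combination. IFITM3 ran from 14.1 to 19.7 FPKM. IFITM1 was at 60.3 FPKM with DMSO and 117 with the combination, a log2 difference of 0.95. These 3 are related neighbours on chromosome 11, and their separate values are uncertain where reads can fit more than 1 of them. BST2 (tetherin, chromosome 19, 17374750 to 17377401), which holds budding virions at the cell surface, was at 77.9, 115, 137, 142 and 169.7 FPKM in the same order. It was the 1 member of this group past 2-fold against DMSO, with the combination (log2 1.11).

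Among other antiviral effectors, SAMD9L (chromosome 7, 92597304 to 92615616), a restrictor of poxviruses and of cell growth, was at 1.28, 1.45, 4.42, 7.39 and 14.5 FPKM (combination against DMSO 2.76). Its neighbour SAMD9 went from 6.11 FPKM with DMSO to 28.0 with the combination. PLSCR1, a phospholipid scramblase, went from 4.56 to 17.4. RSAD2 (viperin) reached 1 FPKM only with the combination, at 1.83 against 0.0736 with DMSO. ISG20, a nuclease, stayed at or below 0.425 FPKM.

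The TRIM, PARP and nuclear body genes included PARP14 (chromosome 3, 123882362 to 123932376), a mono-ADP-ribosyltransferase, at 1.20 FPKM with DMSO, 2.27 with MC_2580, 10.5 with RA 0.01 uM, 15.9 with RA 1 uM and 30.3 with the combination (log2 3.83). TRIM22, a ubiquitin ligase of antiviral function, was at 2.93, 5.21 and 6.78 FPKM with DMSO, MC_2580 and RA 0.01 uM and at 37.2 with the combination (log2 3.28). It had no value with RA 1 uM, and its row spans a long stretch of chromosome 11 (5230996 to 5850164). PARP9 went from 2.18 FPKM with DMSO to 15.5 with the combination and SP110 from 17.2 to 54.4. STAT2, the interferon signal transducer itself, was at 11.2, 12.3, 12.4, 17.3 and 27.1 FPKM. TRIM21, an intracellular antibody receptor, stood apart in being nearly as high with RA 0.01 uM (21.7 FPKM) as with RA 1 uM (24.2) and the combination (24.3), from 9.29 with DMSO. TRIM25 ranged from 19.2 FPKM with DMSO to 35.6 with the combination, under 2-fold. SP100 had values only with MC_2580 (18.4 FPKM) and the combination (47.3).

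IFI30 (chromosome 19, 18145579 to 18149927), the lysosomal thiol reductase GILT that prepares antigens for class II presentation, was at 0.633 FPKM with DMSO and 1.16 with MC_2580. It reached 29.6 with RA 0.01 uM, 31.2 with RA 1 uM and 42.9 with the combination (log2 4.75 against DMSO). All 3 RA libraries stood far above both libraries without RA, and the RA doses differed by only 0.08 in log2. IFI6 (chromosome 1, 27865159 to 27871311), a mitochondrial and endoplasmic reticulum protein that limits apoptosis and flavivirus replication, had the same shape, at 8.29, 9.61, 101, 106 and 164 FPKM. In the untreated WT libraries of the other table, whose scaling against this one is unknown, IFI6 was at 56.2 and 81.2 FPKM.

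EPSTI1 (chromosome 13, 42360123 to 42464377), an interferon-response gene first found in epithelial-stromal interaction, was at 0.0689, 0.222, 1.08, 3.21 and 10.1 FPKM. It was the only member past 2-fold between the RA doses. IFI35 (chromosome 17, 38412351 to 38419998) was at 1.19, 1.39, 9.64, 12.9 and 16.9 FPKM. LGALS3BP (chromosome 17, 74478932 to 74487656), a secreted glycoprotein that binds galectins, was at 2.06, 2.54, 11.4, 16.6 and 20.1. XAF1, a pro-apoptotic partner of XIAP, went from 3.03 FPKM with DMSO to 23.4 with the combination. IFI44 reached 1 FPKM only with the combination (1.25), and IFI44L and IFI27 in no treatment library.

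**Figure D3:**
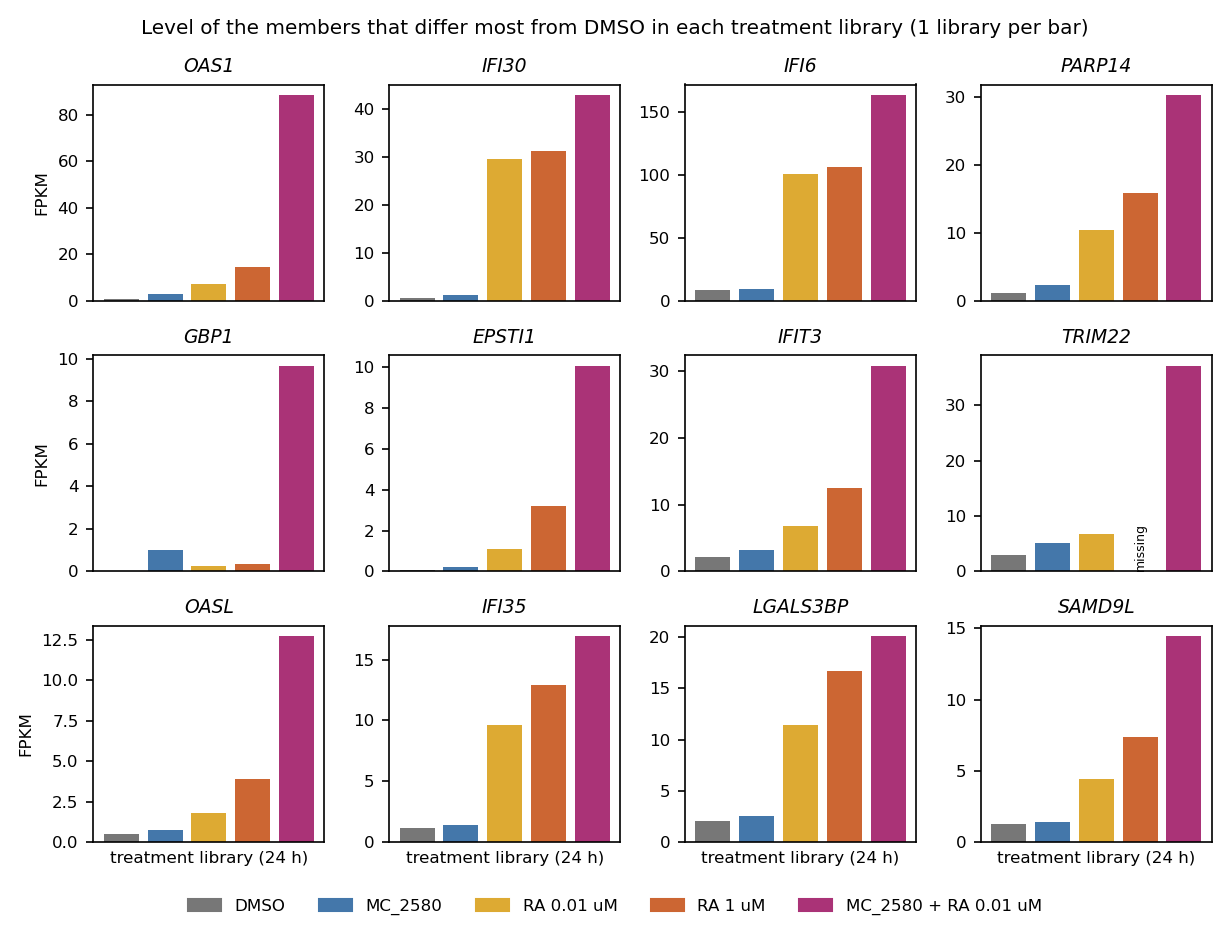
FPKM (y axis, from 0) of the 12 members with the largest log2 difference from DMSO among those of at least 5 FPKM in 1 library, with 1 bar for each treatment library and so no error bars. The combination bar is the tallest for all 12, IFI30 and IFI6 are already high with RA 0.01 uM, and GBP1 and OAS1 are high mainly with the combination.

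The next question was how much the inhibitor added to low-dose RA. Combination against RA 0.01 uM had 19 members higher of 38 measured (5.06% of all loci) and none lower (1.92%), with a median of 1.00 in log2 (all loci 0.03). The same addition to DMSO, which shares no library with that comparison, had none. OAS1 differed by 3.48 with RA and by 0.92 without. TRIM22 differed by 2.30 and 0.66, and IFIT1 by 2.19 and 0.25. IFIT3 (2.02 and 0.40), XAF1 (1.87 and 0.17), IFIT2 (1.85 and 0.42), GBP2 (1.73 and 0.53) and PARP14 (1.45 and 0.57) had the same order. BST2 did not, at 0.31 with RA and 0.56 without. IFI6 (0.69 and 0.19) and IFI30 (0.52 and 0.40), the members already high with RA alone, differed by less than 2-fold either way.

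On the log2 scale, the combination exceeded the sum of the 2 single-agent differences from DMSO in 36 of 38 members measured. Of the 34 members that reached 1 FPKM in 1 of the 4 libraries, 32 did, where 54.7% of the 14045 loci that reached it did. The excess was at least 1 in 17 of these 34, against 4.52% of those loci (2.81% of those that are protein-coding genes). The median excess was 0.95 over the 38 and 1.00 over the 34 (0.03 over those loci), and the range ran from -0.25 for BST2 to 2.56 for OAS1. With 1 library per treatment this excess carries no test. Members that reach 1 FPKM only with the combination, such as GBP1 and MX1, are among the 34. For such genes the added 1 shrinks the single-agent differences more than that of the combination, which can enlarge the excess. GBP1 had an excess of 2.13, though it was at 0.0227 FPKM with DMSO and 0.998 with MC_2580.

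**Figure D4:**
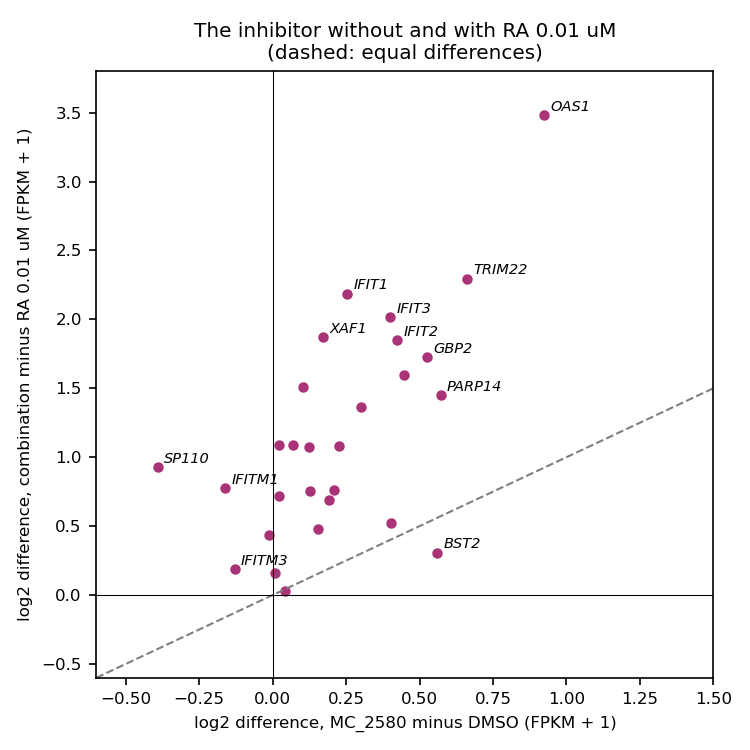
Each point is 1 member of at least 1 FPKM in 1 library of each pair, with the log2 difference of MC_2580 against DMSO on the x axis and that of the combination against RA 0.01 uM on the y axis (both of FPKM + 1); the dashed line marks equal differences. OAS1 lies highest at 0.92 and 3.48, BST2 lies below the line at 0.56 and 0.31, and SP110, IFITM1 and IFITM3 lie left of 0.

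The combination was also above the higher RA dose. Against RA 1 uM it was above in 35 of 37 members measured, and in 32 of the 33 that reached 1 FPKM in either library (48.1% of all loci that did). The difference was 1 or more in log2 in 9 (4.07%), and its median over the 37 was 0.59. GBP1 differed most, by 2.99, followed by OAS1, and IFITM2 was at -0.02. Raising RA from 0.01 to 1 uM had 1 member higher of 37 measured, EPSTI1 (1.93% of all loci), and none lower (1.68%), with a median of 0.38. Adding RA 0.01 uM to MC_2580 had 29 higher of 39 (7.8%) and none lower (4.54%), with a median of 1.67.

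In the authors' deposited table, which tests each pair of libraries, 1 of 36 members is called between DMSO and MC_2580 (1.06% of loci tested there). That member is GBP1, which was below 1 FPKM in both libraries. For RA 0.01 uM against DMSO the authors' deposited table calls 9 of 37 (4.55%), and for RA 1 uM 18 of 37 (5.08%). For the combination the authors' deposited table calls 27 of 38 against DMSO (6.44%), 17 of 38 against RA 0.01 uM (2.83%) and 6 of 37 against RA 1 uM (2.31%). Between the RA doses the authors' deposited table calls 0 of 37 (1.07%). For KO against WT it calls 0 of 40 members in replicate 1 (0.746%) and 0 of 37 in replicate 2 (0.632%), again in the authors' deposited table.

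Members with and without the promoter motif were set side by side, with no filter on low values and no test. The median combination difference from DMSO was 1.43 over the 23 measured members whose window held the motif and 2.28 over the 10 whose window did not. For the inhibitor added to RA 0.01 uM the medians were 0.79 and 1.00.

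Genes of the surrounding pathway were followed on lists of 114 further genes. Of 102 measured, 40 were higher with the combination than with DMSO (9.05% of all loci tested were) and none was lower (4.64%). With RA 1 uM 27 of 102 were higher (6.63%) and 1 lower (4.09%). With RA 0.01 uM 19 of 103 were higher (5.42%) and 1 lower (3.99%), and with MC_2580 2 of 103 (2.22%) and none (1.73%). The gene lower with RA was HERC5, the ligase for ISG15, at 5.79 FPKM with DMSO and 1.89 and 2.06 with the RA doses. HERC5 was at 11.9 with MC_2580 and 17.6 with the combination. Of the interferon genes, 10 were looked up (IFNA1, IFNA2, IFNB1, IFNE, IFNG, IFNK, IFNW1 and the lambda genes IFNL1, IFNL2 and IFNL3), and none reached 1 FPKM in any of the 9 libraries, IFNA1 being highest at 0.615 with RA 1 uM and IFNB1 at 0.488 in WT 1.

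Of 12 receptor and signalling genes measured, 5 were higher with the combination (9.05% of all loci tested). IRF9, listed as ISGF3G, was at 7.78 FPKM with DMSO and 19.5 with the combination. Of 8 interferon regulatory factors measured 4 were higher. IRF1 was at 15.5 and 22.6 FPKM with DMSO and MC_2580 and at 119, 123 and 163 with RA 0.01 uM, RA 1 uM and the combination. IRF8, a myeloid lineage factor, was at 6.32, 16.3, 3.04, 4.58 and 33.5, below DMSO with both RA doses and above it with the inhibitor.

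Of 15 nucleic acid sensing genes measured, 5 were higher with the combination (9.05% of all loci tested). TMEM173 (STING) was at 29.2 and 32.3 FPKM without RA and at 254, 278 and 278 with it. AIM2, a DNA sensor of the inflammasome, was at or below 0.355 FPKM in 4 libraries and at 8.74 with the combination. MYD88, the Toll-like receptor adaptor, was at 8.78, 10.8, 10.2, 18.0 and 58.1.

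Of 11 negative regulators measured, 4 were higher with the combination (9.05% of all loci tested). SAMHD1, which depletes nucleotides, was at 9.29, 12.3, 30.6, 51.9 and 72.8 FPKM. SOCS1, a feedback inhibitor of JAK kinases, was at 0.808, 1.22, 6.49, 2.80 and 11.5. Of 46 other interferon-stimulated genes measured, 22 were higher. CXCL10, a chemokine for T cells, was at 1.84, 20.0, 0.897, 7.32 and 74.8 FPKM and was, with IRF8, 1 of the 2 pathway genes higher with MC_2580 alone. DDX60L went from 2.93 with DMSO to 23.0 with the combination and GBP3 from 1.36 to 11.0.

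The summed level of maturation markers was also highest with the combination. The 9 neutrophil maturation markers summed to 78.4 FPKM with DMSO, 133 with MC_2580, 1713 with RA 0.01 uM, 2446 with RA 1 uM and 4281 with the combination, CSF3R lacking a value in the last 3. NCF1, a subunit of the phagocyte oxidase, made up the largest share of the last sum, at 2245 FPKM. CEBPE, a granulocytic transcription factor, was instead highest with RA 1 uM (341 FPKM, against 262 with the combination), and LTF was at or near 0 in all 5. Promyelocyte markers summed to 5663 and 6933 without RA and to 3461 to 3611 with it, a sum made up mostly of MPO. PRTN3 went the other way, from 178 FPKM with DMSO to 762, 966 and 454 with RA 0.01 uM, RA 1 uM and the combination, and CD33 went from 32.0 with DMSO to 46.8 with the combination. Lymphoid markers summed to 98.7, 103, 166, 173 and 223, most of the difference being CD79A and NKG7. CD3D, the highest of them with DMSO (74.4 FPKM), was at 57.3 with the combination, and CD3E stayed below 1. Of the monocyte markers matched, CSF1R was at 23.0 FPKM with the combination and CD14 at 3.03, and CD163, MRC1, FCGR3A and MSR1 were at or near 0. The part of maturation in the member levels was not tested. In bulk RNA, fewer cells of a type and less RNA per cell cannot be told apart.

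Between KO and WT cells no member passed the test. In limma's fit of 13151 loci, 15 passed an adjusted p of 0.05 (0.114% of loci), and none of the 35 members tested was among them. The smallest adjusted p of a member was 0.148. The unadjusted p was under 0.05 in 5 of 35 members, where 7.16% of loci had such a p. Both KO values lay above both WT values in 8 of 35 (17.9% of loci) and below in 4 (16.1%). The median difference was -0.08 (all loci -0.02). The other 6 members (IFI44L, MX1, RSAD2, GBP1, GBP4 and ISG20) were under 1 FPKM in both group means.

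IFI30 had the largest KO difference. It was at 6.22 and 8.72 FPKM in KO and at 0.888 and 0.489 in WT, or 7.47 ± 1.77 against 0.689 ± 0.282 (SD, n = 2 libraries each). Both KO libraries stood far above both WT libraries, a log2 difference of 2.32 (SE 0.27) with limma's adjusted p = 0.148. Among protein-coding genes with 1 locus alone, limma's adjusted p was 0.0422, where 0.592% of such genes passed. Within its own table, each of the 3 RA libraries was likewise above DMSO and MC_2580 for IFI30. The scaling of the tables against each other is unknown, so KO and RA levels were not compared.

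IFI16, a nuclear DNA sensor (chromosome 1, 157236382 to 157291567), was at 57.3 and 43.7 FPKM in KO and 23.9 and 15.0 in WT. The groups did not overlap, and the difference of 1.36 (SE 0.31) had limma's adjusted p = 0.456. BST2 was at 163 and 177 in KO and 100.2 and 86.0 in WT. Its difference was 0.87 (SE 0.19), with limma's adjusted p = 0.437 and no overlap. DDX58 (chromosome 9, 32445300 to 32516322) was at 16.1 and 14.6 in KO and 10.5 and 6.81 in WT, a difference of 0.79 (SE 0.25; limma adjusted p = 0.641).

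IFIT1 and IFIT3 had smaller differences. IFIT1 was at 20.4 and 14.3 FPKM in KO and 14.0 and 6.69 in WT (difference 0.75, SE 0.41). IFIT3 was at 12.3 and 11.7 in KO and 10.1 and 4.52 in WT (0.73, SE 0.39). The KO values just cleared WT 1 in both. PARP14 overlapped, at 9.52 and 5.05 in KO and 6.34 and 1.74 in WT (0.83, SE 0.61). For these 3 genes limma's adjusted p was 0.830. Their differences moved most with the WT libraries: without WT 2 they were 0.27 (IFIT1), 0.23 (IFIT3) and 0.12 (PARP14), and without WT 1 they were 1.24, 1.24 and 1.54. Without KO 1 PARP14 was at 0.43. DDX58 was at 0.51 without WT 2. Same-numbered KO and WT libraries deviated together (correlation 0.82 over protein-coding genes), so leaving out 1 library unbalances the replicate numbers. Within each replicate number KO was above WT for IFIT1, IFIT3 and PARP14. With that number as a block, limma's adjusted p was 0.178, 0.276 and 0.192 for these genes.

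Other members had lower values in KO, none past the test. IFI6 was at 48.7 and 37.9 FPKM in KO and 56.2 and 81.2 in WT, a difference of -0.64 (SE 0.28; limma adjusted p = 0.778), and of -0.38 without WT 2. IFI27 was at 0.275 and 0.265 in KO and 1.64 and 1.55 in WT, a difference of -1.03 (SE 0.26; limma adjusted p = 0.522). IFI6 thus lay lower in KO than in WT, while RA put it above DMSO. OAS1 overlapped, at 9.54 and 7.80 in KO and 16.4 and 5.48 in WT.

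**Figure D5:**
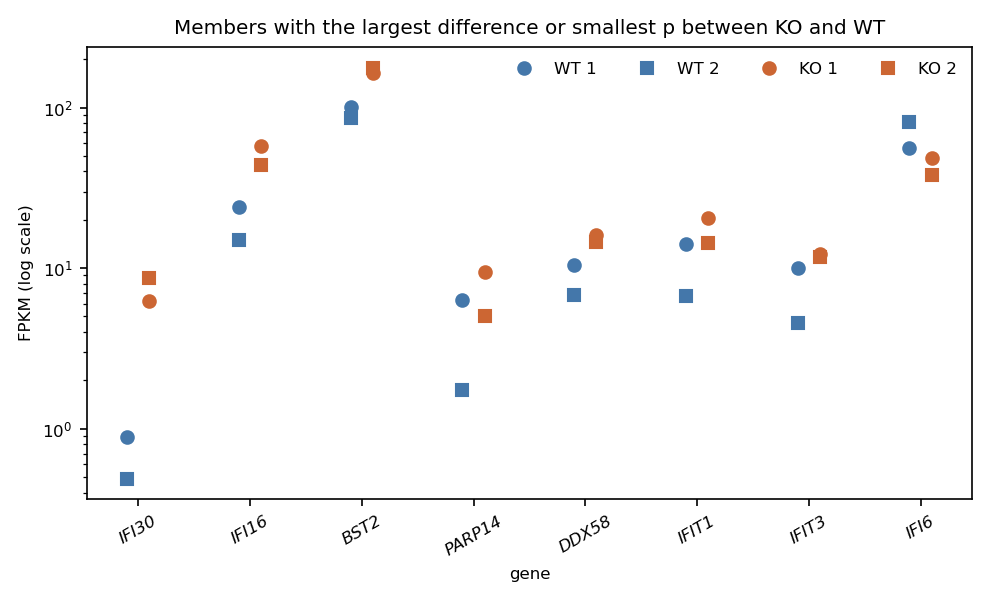
FPKM on a log axis of the 8 members with the largest difference or smallest p between KO (orange) and WT (blue) among those of at least 5 FPKM in 1 library, with circles for replicate 1 and squares for replicate 2. IFI30, IFI16, BST2 and DDX58 have both KO points above both WT points, as do IFIT1 and IFIT3 more narrowly. IFI6 has both below, and PARP14 overlaps.

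The spread within the groups limits this comparison. WT 1 was above WT 2 in 31 of 35 members (46.3% of all loci) and KO 1 above KO 2 in 27 (45.2%). GBP2 was at 14.1 and 3.91 FPKM in KO and 14.9 and 4.26 in WT. The member median was -0.37 without WT 2 and 0.29 without WT 1, so its sign rested on which WT library was used. It was -0.19 without KO 1 and 0.08 without KO 2, and limma called no locus after leaving out any 1 of the 4 libraries (652 to 800 loci at an unadjusted p under 0.05). Such a fit has 1 library in a group, which is assumed to vary like the other group, and with so few libraries a count of 0 says nothing about stability.

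In the pathway lists none of 70 genes tested passed limma's adjusted p of 0.05 between KO and WT, and 9 had an unadjusted p under 0.05. HERC5 had the smallest, at 21.2 and 24.6 FPKM in KO and 7.12 and 6.74 in WT (limma adjusted p = 0.115). Neutrophil maturation markers summed to 208 and 192 FPKM in KO and 90.8 and 84.1 in WT. ITGAM, CEBPE, S100A8 and S100A9 were above both WT libraries in both KO libraries. CYBB, NCF1 and CSF3R overlapped. FPR1 was lower in KO but did not exceed 0.0862 FPKM in any KO or WT library, and LTF was at or near 0. None of the 7 tested passed limma's adjusted p of 0.05. Lymphoid markers summed to 302 and 237 against 167 and 99.7, with CD3D, CD3G, CD2 and CD79A above both WT libraries in both KO libraries. The part of either in the member values was not tested. Loss of LSD1 and any other difference between the KO and WT lines cannot be told apart.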

How the data were processed

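RNA-seq of NB4 cells gave 9 libraries: 5 treatments with 1 library each, and KO and WT with 2 each. The authors deposited FPKM values for every locus, per the file headers, in a knockout table (with 0.001 added to each value, subtracted here) and a treatment table of all 10 pairs of libraries. The p-values and calls in the authors' deposited table are their own tests of 1 library against another, and their deposited q-value column, which exceeds 1 and so was treated as a score, was not used. Of the upstream tools, the submitters' processing notes list build hg18, Cuffdiff, Cufflinks, TopHat2 2.0.10, TopHat 1.3.1 and CASAVA 1.8, in no stated role or order. For annotation, scaling between libraries, read totals and strand, no statement was found in the labels or headers, so depth is known only in relation and no counting interval was computed. A failed status was treated as a missing value, at 7 loci of the KO experiment and 1039 of the treatments, among them IFI16, EIF2AK2, SP100 and TRIM22. Among treatment loci, 202 are at 0 in some pairs and above 0 in others, and the value above 0 was used. Starts count from 0 in the files, since the spans of miRNA loci equal end minus start in 38.7% of 297 loci and 1 more in 0%, and 1 was added to them.

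For KO against WT, limma 3.58.1 (trend, two-sided, R 4.3.3) was run on log2(FPKM + 1) where a group mean reached 1 FPKM, and p-values were adjusted by Benjamini-Hochberg, with 0.05 as the threshold. Treatments were compared as log2 ratios of FPKM + 1 where 1 of both libraries reached 1 FPKM, at 2-fold and with no test; counts and medians over measured members use no filter unless one is named. On this scale the change of low genes is understated. Calls were also made among protein-coding genes with 1 locus (17318 and 17336). The limma fit and the 2-fold rule were tested on simulated data. Tables and plots were made with matplotlib 3.10.9, numpy 2.4.6 and pandas 2.3.3 in Python 3.11.15.

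The members and lists were chosen with earlier results of these data known. Values in every treatment library are given for the 12 members with the largest difference from DMSO. Values in every KO and WT library are given for the 8 with the largest difference and the 6 with the smallest unadjusted p between KO and WT. Each was chosen among members of at least 5 FPKM in 1 library. Other members, and IFI27, DDX58 and IFIT1 in the treatments, are named as examples of their role. Of the pathway lists, the 10 genes with the largest difference from DMSO are named, and HERC5, IRF9, IFNA1 and IFNB1 were named after their values were seen. Alternatives were other pseudocounts, filters, scalings and folds, a replicate block and each KO or WT library left out.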

Additional observations from a re-analysis of the deposited data

Results flagged for a closer look

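For 6 members MC_2580 lay below DMSO while the combination lay above RA 0.01 uM, so the inhibitor differences had opposite signs without and with RA. With 1 library per treatment the difference between the 2 was not tested. SP110, a nuclear body protein, was at -0.39 in log2 without RA (17.2 against 12.9 FPKM) and at 0.93 with RA (28.1 against 54.4). IFITM1 was at -0.16 without RA (60.3 against 53.8 FPKM) and at 0.78 with RA (67.9 against 117). IFITM3 was at -0.13 and 0.19, and its reads can be shared with its related neighbours. ADAR was at -0.013 and 0.43. For these 4 genes WT 1 differed from WT 2 in the other table by 0.65 (SP110), 0.91 (IFITM1), 0.36 (IFITM3) and -0.33 (ADAR), each larger in size than the difference without RA. For IFITM1 and IFITM3 this gap was also larger than the difference with RA, and for SP110 and ADAR it was smaller. MX1 was at -0.039 and 0.95, and IFI44L at -0.011 and 0.47, both below 1 FPKM with DMSO and with MC_2580.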

How the results depend on the processing

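No difference past its threshold changed sign under any alternative tried, but the members' median between KO and WT, which is near 0, did. The number of loci that limma called between KO and WT varied: 15 became 38 with a pseudocount of 0.1, 0 with no filter (1718 at an unadjusted p under 0.05), 7 at 5 FPKM, 59 among protein-coding genes and 0 to 0 without any 1 library. With the replicate number as a block it was 0 (3194 at an unadjusted p under 0.05). Same-numbered KO and WT libraries deviated together (correlation 0.21 over all loci, 0.82 over protein-coding genes), but nothing states what a replicate number stands for, and there are only 2. Members called went from 0 to 1 (IFI30) among protein-coding genes and from 0 to 0 without any 1 library, and their median difference ran from -0.37 to 0.29. Unless another filter is named, the treatment counts and medians that follow are over members that reached 1 FPKM in either library. They therefore leave out GBP1 with MC_2580 against DMSO and IFI27 between the RA doses. With a pseudocount of 0.1, members higher with MC_2580 went from 0 to 1, members lower with RA 0.01 uM from 0 to 1 (IFIT1), members higher in RA 1 uM against RA 0.01 uM from 1 to 3, and the median for the combination against DMSO from 2.04 to 2.77. At 1.5-fold, members higher were 2 with MC_2580, 21 with RA 0.01 uM (1 lower) and 8 between the RA doses. At 4-fold they were 6 with RA 0.01 uM, 7 with RA 1 uM, 18 with the combination, 7 when MC_2580 was added to RA 0.01 uM, 15 when RA was added to MC_2580 and 0 between the RA doses. That last count was also 0 at 5 FPKM and 0 with differences rescaled to a median of 0. Of the other summary values 116 stayed on their side or within 1.5 times, as did 218 for single members (17 moved, all with the pseudocount of 0.1, and 1 passed the threshold). Single libraries per treatment and unknown read totals are the main limits: no error can be given for any treatment value.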

Other observations

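The 4 symbols left out have rows that carry some signal. OAS2 and OAS3 share 1 row of the knockout table (chromosome 12, 111860540 to 111933911, hg18), at 2.91 FPKM in KO 1 and lower in KO 2, and at 8.29 and 2.36 in WT. The treatment table lists a row over the same span as OAS2, at 0.191 FPKM with DMSO, 0.392 with MC_2580, 3.02 with RA 0.01 uM, 6.31 with RA 1 uM and 15.5 with the combination. MX2 shares a row with AL773578.1 and varied little, at 38.3, 39.1, 40.8, 49.2 and 42.5 FPKM in the treatments, 21.4 and 25.0 in KO and 28.1 and 29.0 in WT. TAP1, a peptide transporter for antigen presentation, has 3 rows. The one on chromosome 6 was at 14.8, 18.3, 19.1, 27.5 and 33.5 FPKM in the treatments, at 12.5 and 7.37 in KO and at 21.7 and 12.7 in WT, and those on 2 alternative haplotypes are at 0.

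Other antigen presentation genes were measured too. TAPBP, which bridges the transporter and class I molecules, was at 25.2, 35.8, 57.0, 71.9 and 85.4 FPKM with DMSO, MC_2580, RA 0.01 uM, RA 1 uM and the combination. PSMB10, an immunoproteasome subunit, was at 33.3, 51.0, 109.8, 148 and 143. TNFSF10 (TRAIL), a death ligand, was at 5.40, 8.96, 2.32, 4.19 and 15.5, below DMSO with both RA doses as HERC5 was. NT5C3A was the reverse of most genes on the lists, at 38.8 FPKM with DMSO and 19.9 with the combination. These genes were chosen after their values were seen.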
